A study of Homo sapiens with 4 samples.

Results

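The genes described here are the replication-dependent histone genes, the clustered genes that supply the histone proteins H1, H2A, H2B, H3 and H4 when DNA is copied. They were taken from the gene table by position and symbol: protein-coding genes on chromosome 1 or 6 named H1-1 to H1-6, or named H2AC, H2BC, H3C or H4C and a number. This gave 68 of 61541 genes. The rule itself uses no measured values, but earlier results of these data were known when it was chosen. Of these, 55 lay on chromosome 6 (chr6:25726063-27893891, hg38) and 13 on chromosome 1, of which 11 lay at chr1:149782689-149887965 and 2 at chr1:228434777-228463104. The chromosome 6 genes comprised 6 H1, 12 H2A, 15 H2B, 10 H3 and 12 H4 genes, and the chromosome 1 genes 5 H2A, 3 H2B, 3 H3 and 2 H4 genes.

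RNA-seq counts were compared between 2 control and 2 cadmium-resistant libraries of MDA-MB-231, a mesenchymal-like human breast cancer line. The cadmium-resistant cells had been passaged for a long period in 10 µM cadmium, a toxic heavy metal, and the parental controls had been passaged in parallel without it. The labels call only the controls biological replicates, so the spread between libraries of a group may be partly technical. The p-values set each difference against a spread estimated with the help of all genes, not from the replicates of that gene alone. The libraries are called control 2, control 3, cadmium 1 and cadmium 2, after the numbers in the count table.

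Nucleosomes wrap DNA around a core of H2A, H2B, H3 and H4, and H1 binds the linker between them. The messenger RNAs of the replication-dependent genes end in a conserved stem-loop instead of a poly(A) tail. That stem-loop is bound by SLBP, and a dedicated cleavage machinery cuts the RNA downstream of it. The RNAs accumulate in S phase and are degraded at its end. Replacement histones, such as H3.3 and H2A.Z, are encoded elsewhere by polyadenylated messages made throughout the cell cycle. The libraries were made with a poly(A)-selecting kit, so the counts are those of histone RNA that passed that step.

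The stem-loops are shown first because they decide how these RNAs end. The first 120 genomic bases after each stop codon were searched on the coding strand, and the most frequent hairpin with 6 paired bases and a 4-base loop among the histone genes was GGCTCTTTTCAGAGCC. It was present exactly in 40 of 68 histone genes (58.8%) and in 1 of 19851 other protein-coding genes (0.00504%). A match at 14 or more of its 16 bases was found in 63 histone genes and 6 other genes. No H4 gene carried the exact form. Instead, 9 H4 genes carried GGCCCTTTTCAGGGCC and 4 carried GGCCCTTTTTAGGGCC, in which paired bases of the stem differ together. The form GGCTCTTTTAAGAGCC was found in 9 genes, 5 of them H2B genes and among these H2BC12 and H2BC5, the most read H2B genes. The following lines give the element (capitals) with 5 bases on either side, 5′ to 3′ on the coding strand, for 6 genes on which the results turn and for 2 H1 genes that had no reads. All lie in the 3′ untranslated part of the gene.
H2BC12: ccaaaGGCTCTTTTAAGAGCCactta
H2BC5: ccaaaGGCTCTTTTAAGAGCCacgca
H1-2: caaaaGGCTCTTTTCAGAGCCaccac
H1-4: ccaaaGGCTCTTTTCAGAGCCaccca
H2AC20: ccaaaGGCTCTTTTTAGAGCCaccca
H4C8: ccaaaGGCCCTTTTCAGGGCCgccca
H1-3: taaacGGCTCTTTTCAGAGCCaccca
H1-5: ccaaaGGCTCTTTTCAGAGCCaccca

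These were read from hg38 at chr6:27146361-27146386 (minus strand), chr6:26158582-26158607 (plus), chr6:26055739-26055764 (minus), chr6:26157090-26157115 (plus), chr1:149887386-149887411 (plus), chr6:26285126-26285151 (minus), chr6:26234212-26234237 (minus) and chr6:27866792-27866817 (minus), in the order of the lines. H1-4, whose level was lower in cadmium than in control, and H1-5, which had no reads, carry the same letters in all of the printed bases.

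H2A and H2B genes often lie head to head and share a promoter region. There were 12 such pairs with less than 400 bases between the gene models. The gaps of the 2 pairs whose partners differed most in fold change, of those with a mean of 10 or more normalized counts in both genes, are shown on the plus strand, 5′ to 3′. Capitals mark TATAAA (the TATA box), CCAAT (the CCAAT box) and ATTTGCAT (the octamer bound by POU factors such as OCT1) on either strand, and neighbouring matches can overlap.
H2BC12-H2AC12 gap (chr6:27146856-27147105): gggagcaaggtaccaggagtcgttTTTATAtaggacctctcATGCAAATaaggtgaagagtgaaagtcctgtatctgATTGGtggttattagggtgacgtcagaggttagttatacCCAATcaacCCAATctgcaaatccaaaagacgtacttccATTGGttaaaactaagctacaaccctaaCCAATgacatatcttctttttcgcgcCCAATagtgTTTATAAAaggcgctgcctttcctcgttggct
H2BC21-H2AC20 gap (chr1:149886683-149886917): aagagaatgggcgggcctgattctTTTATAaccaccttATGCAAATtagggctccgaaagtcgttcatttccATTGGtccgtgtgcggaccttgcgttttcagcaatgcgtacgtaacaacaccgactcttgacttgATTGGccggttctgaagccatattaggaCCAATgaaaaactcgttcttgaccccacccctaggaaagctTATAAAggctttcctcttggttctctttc

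In both gaps the H2B gene is read leftward and the H2A gene rightward, and each holds 1 octamer near its H2B end. A total of 63 histone genes matched a RefSeq promoter on GRCh38.p14, taken as 250 bases before to 50 bases after the start. TATAAA on either strand was present in 65.1% of them and in 11.95% of all 27305 promoters. CCAAT was present in 85.7% against 35.7%, in every matched H1, H2A, H2B and H3 promoter but in only 3 of 12 H4 promoters. ATTTGCAT was present in 41.3% against 1.80%, and was concentrated in 14 of 18 H2B and 11 of 16 H2A promoters, with 1 of 11 H3 promoters and no H1 or H4 promoter. TATAAA was found in 33 of 50 promoters on chromosome 6 and 8 of 13 on chromosome 1, and ATTTGCAT in 22 of 50 and 4 of 13. These matches describe letters only.

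The 4 libraries held 51934729 to 61916007 counts. Histone genes took a very small part of them, 5301 and 2538 counts in control 2 and control 3 and 5519 and 6350 in cadmium 1 and cadmium 2, or 0.00489% to 0.0112%. The MDA-MB-231 markers were abundant, with VIM at 699 to 871, CD44 at 378 to 470 and EGFR at 328 to 450.5 CPM (counts scaled to the total of the library). Among 6 markers of other cell types (ESR1, PGR, CDH1, EPCAM, PTPRC and PECAM1) none was called, with 0 at an unadjusted p below 0.05 by DESeq2 and 1 by edgeR, and the hormone receptor genes ESR1 and PGR reached at most 0.323 and 0.530 CPM. The controls stood apart from each other in several of these. EPCAM had normalized counts of 2410 and 662 in control 2 and control 3, against 774 and 728 in cadmium. PTPRC had 1.89 and 144, against 36.8 and 42.5, and CDH1 had 107 and 615, against 169 and 119. PECAM1 had 160 and 842, against 686 and 641. A normalized count is a count divided by the size factor of its library. Without control 2, DESeq2 called 2311 genes and without control 3 it called 6189, against 225 with both. Histone results are therefore given with each control beside them. In these bulk libraries, fewer cells carrying a transcript and less transcript per cell cannot be told apart.

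Of the 68 genes, 24 had no read in any library and 44 had reads. Of those with reads, 23 averaged 10 or more normalized counts over the libraries (20 on chromosome 6 and 3 on chromosome 1). The other 21 had 0 to 17 counts in any library. Fold changes are described for the 23 only. A count of 0 allows up to 3 counts, which is 0.0485 to 0.0578 CPM in these libraries and covers counting error only. Since each mate of a read pair was counted, the corresponding floor in mates is 6 counts.

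The genes at 0 were not scattered along chromosome 6. One unbroken run of 15 histone genes, from H4C4 to H2BC10 (chr6:26188710-26273412), had no read in any of the 4 libraries. It comprised H4C4, H3C4, H2AC7, H2BC7, H4C5, H2BC8, H2AC8, H3C6, H1-3, H4C6, H4C7, H3C7, H2BC9, H3C8 and H2BC10. The flanking genes were read: H2BC6 upstream had 11, 10, 2 and 7 counts (control 2, control 3, cadmium 1, cadmium 2) and H4C8 downstream had 53, 30, 123 and 114. The interval without a read gene between them spanned 93.0 kb. It held 6 further annotated genes, 4 of them histone pseudogenes, and all 6 were also at 0.

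A second, shorter run held H2AC16, H1-5, H3C11 and H4C13 (chr6:27865317-27873534), with the pseudogene H2BC16P inside it also at 0. It lay between H2BC15, with 49, 22, 110 and 78 counts, and H3C12, with 17, 4, 5 and 3. The run of 15 held genes of every family, and the run of 4 held 1 gene each of H1, H2A, H3 and H4. Together they held 2 H1, 3 H2A, 4 H2B, 5 H3 and 5 H4 genes over 11.6 kb of exons. Outside them, 33 of 36 chromosome 6 histone genes had reads, with a median of 62 counts summed over the libraries. The 3 exceptions were H2AC1, H2BC1 and H1-6, the genes known for expression in testis.

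Sequence uniqueness did not set these runs apart. Every 100-base exon window of the 19 genes occurred once in hg38, so reads from them could be placed. Of the 19, H3C4 and H2AC7 shared exon bases with ENSG00000282988, a protein-coding gene also at 0. The shared part was 96.6% of H3C4 and 85.3% of H2AC7. Reads in such overlaps are not assigned, so the counts of 0 in H3C4 and H2AC7 say little about their RNA. The same holds for the shared bases of ENSG00000282988. Of the promoters in the runs, 18 matched the RefSeq table, and CCAAT was found in 83.3% of these against 86.2% of 29 promoters of other chromosome 6 histone genes with reads. The octamer was found in 44.4% and 41.4%, and TATAAA in 44.4% and 79.3%. The cause of the runs was not tested.

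**Figure D1:**
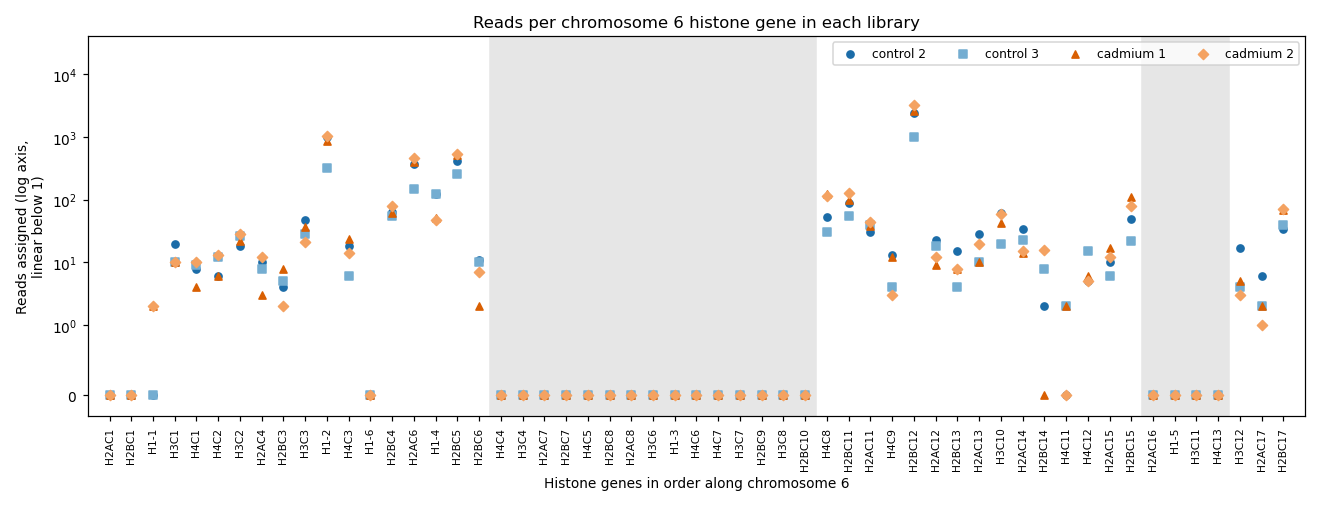
Counts of the 55 chromosome 6 histone genes (vertical axis, logarithmic above 1 and linear below, with 0 shown) in their order along the chromosome (horizontal axis), with 1 symbol per library and no averaging. The shaded blocks are the 15 and 4 neighbouring genes at 0 in all 4 libraries, and the genes on either side of each block have reads.

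On chromosome 1 the picture was limited by sequence copies. H3C14, H3C15, H2AC18, H2AC19, H4C14 and H4C15 had no unique 100-base window, and a read that fits several places is not counted, so their counts of 0 to 7 say little about their RNA. Only H4C14 and H2BC26 were at 0 in every library. H4C15, the H4 gene with the most reads there, had 0, 2, 7 and 0 counts, and H3C13, the H3 gene with the most reads there, had 6, 8, 6 and 8. The groups overlapped in both. The genes with a mean of at least 10 on this chromosome were H2BC18, H2BC21 and H2AC20, with 49.7%, 97.4% and 87.3% of their windows unique. Some chromosome 6 genes were limited in the same way. The share of unique windows was 41.2% in H2AC13, 38.2% in H2AC14, 9.31% in H4C11 and 8.68% in H4C12.

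DESeq2 gave an adjusted p-value to 29 of the 68 genes and called none at an adjusted p below 0.1, where it called 225 of 19816 genes overall (1.14%), 119 higher in cadmium (0.601%) and 106 lower (0.535%). At an unadjusted p below 0.05 there were 5 histone genes, 3 higher and 2 lower, all with a mean of at least 10. That threshold was passed by 7.15% of all genes with such a mean and by 6.92% of all genes with an adjusted p. The edgeR quasi-likelihood test called 0 of 25 histone genes and 0 of 19241 genes, with 4 histone genes and 1422 genes at an unadjusted p below 0.05. In simulated data for 33455 genes with 2 libraries a group, 200 genes were altered. DESeq2 recovered 27.5% of these at 2-fold and 68.0% at 4-fold, and edgeR 0% and 58%, so changes of this size can be missed. With 0 genes altered, DESeq2 called 58 genes and edgeR 9. Recovery at the count levels of the histone genes was not tested.

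Among the 23 genes with a mean of at least 10, the fold change (cadmium over control) was above 0 in 16 and below 0 in 7, where it was above 0 in 47.0% of all genes and in 68.3% of the 992 chromosome 6 genes with such a mean. Both cadmium libraries lay above both controls in 10 of the 23 (20.1% of all genes) and below both in 5 (20.4%). Together 15 of 23 did not overlap (40.5% of all genes), and in the other 8 the groups overlapped. Of the 992 chromosome 6 genes, 39.3% lay above both controls and 11.1% below, and 20 of the 23 histone genes are on that chromosome. The median log2 fold change was 0.35, against -0.03 over all genes and 0.19 over those of chromosome 6.

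The families were not alike in these counts. H2B, a core histone that pairs with H2A in the nucleosome, was above 0 in 8 of 8 genes, with both cadmium libraries above both controls in 7 and a median log2 fold change of 0.67. Over all genes with a mean of at least 10, 47.0% were above 0 and 20.1% lay above both controls, and on chromosome 6 68.3% and 39.3%. H2BC18 was close to 0, at 0.03, and was below 0 when counts were halved. H2A was above 0 in 3 and below 0 in 4, with a median of -0.33. H3 was above 0 in 2 of 4 and H4 in 2 of 2. H1 was above 0 in 1 of 2. TMM and upper-quartile factors left all of these counts as they were, but leaving out 1 library did not. H2A was above 0 in 4 of 7 without cadmium 1, with a median of 0.08, and its median was -0.91 without cadmium 2. H2B was above 0 in 7 of 8 without control 3 or without cadmium 1. H1 was above 0 in 0 of 2 without control 3, and H3 in 1 of 4 without control 2, control 3 or cadmium 2. None of these family counts was tested.

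**Figure D2:**
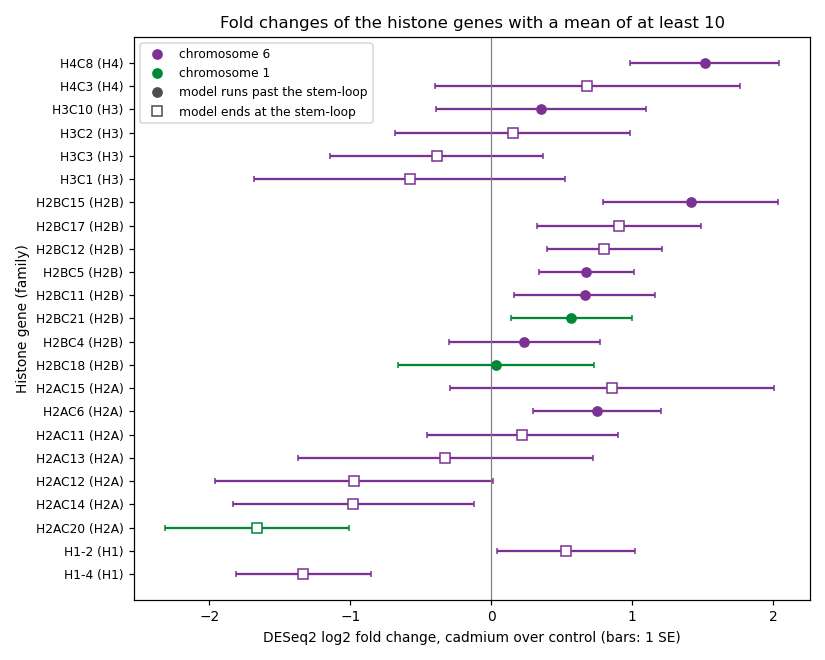
DESeq2 log2 fold change, cadmium over control (horizontal axis), of the 23 histone genes that averaged 10 or more normalized counts, grouped by family on the vertical axis, with bars of 1 standard error from 2 libraries a group. The 8 H2B genes lie at or right of 0, H2AC20 and H1-4 lie farthest left, and filled symbols mark gene models that run more than 100 bases past the stem-loop.

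H2BC12 had by far the most reads. Its normalized counts were 2232 and 1049 in control and 2529 and 3196 in cadmium. Both cadmium libraries were above both controls, but control 2 was nearer to cadmium 1 than to control 3. The log2 fold change was 0.80 ± 0.41 (SE), with a DESeq2 adjusted p of 0.718. Per kb of exon it was also the most abundant histone gene, at 77.0, 38.4, 93.2 and 116 CPM per kb. Of its windows 77.5% were unique, so part of its RNA could not be counted.

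H2BC5 had normalized counts of 384 and 273 in control and 516 and 534 in cadmium. The groups did not overlap, and the log2 fold change of 0.67 ± 0.34 (SE) had an unadjusted p of 0.0461 and an adjusted p of 0.707 (DESeq2). H2BC15, in the chromosome 6 block next to the shorter run, had 46.4 and 23.4 against 109 and 77.0. Its log2 fold change was 1.41 ± 0.62 (SE), with an adjusted p of 0.526 (DESeq2). Its gene model is 4265 bases long and extends far past the stem-loop. H2BC21, the most read H2B gene of chromosome 1, had 184 and 140 against 295 and 186, so that cadmium 2 was barely above control 2. Its log2 fold change was 0.57 ± 0.43 (SE). The other 4 H2B genes (H2BC4, H2BC11, H2BC17 and H2BC18) lay between 0.03 and 0.91.

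H4C8 had the highest fold change of the 23. H4 is the most conserved core histone, and all H4 genes encode nearly the same protein. Its normalized counts were 50.2 and 31.9 in control and 122 and 113 in cadmium. The groups were well apart, with a log2 fold change of 1.51 ± 0.53 (SE), an unadjusted p of 0.00421 and an adjusted p of 0.227 (DESeq2). The H4C8 gene model is 2163 bases long and ends 7522 genomic bases past the stem-loop. Which part of the model gave the reads was not tested. H4C8 is the first read gene after the run of 15. H4C3 had 17.0 and 6.38 against 23.9 and 13.8, and H4C2 had 6, 12, 6 and 13 counts. In both the groups overlapped.

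The linker histone genes H1-2 and H1-4 lie in the same stretch of chromosome 6 and differed in direction. H1-4 had normalized counts of 116 and 129 in control and 50.8 and 46.4 in cadmium. Replicates were close in both groups, at 123 ± 8.68 and 48.6 ± 3.08 (SD, n = 2). The log2 fold change was -1.33 ± 0.48 (SE), with an unadjusted p of 0.00553 and an adjusted p of 0.269 (DESeq2). It was between -1.41 and -1.27 when any 1 library was left out. H1-2 had 952 and 340 in control and 861 and 1006 in cadmium. Here the controls differed more than the groups, and the log2 fold change of 0.53 ± 0.49 (SE) became -0.04 without control 3 and 1.45 without control 2. H1-1 had 0, 0, 2 and 2 counts, and H1-3, H1-5 and the testis gene H1-6 had none.

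H2AC20, on chromosome 1, had the lowest fold change of the 23. Its normalized counts were 99.4 and 54.2 in control and 23.9 and 24.7 in cadmium. Both cadmium libraries were below both controls, with a log2 fold change of -1.66 ± 0.65 (SE), an unadjusted p of 0.0109 and an adjusted p of 0.366 (DESeq2). H2AC6, the most read H2A gene, had 351 and 159 against 403 and 457, with a log2 fold change of 0.75 ± 0.45 (SE). H2AC11 had 28.4 and 41.5 against 37.8 and 43.4, and the groups overlapped. The other 4 H2A genes (H2AC12, H2AC13, H2AC14 and H2AC15) lay between -0.98 and 0.86. In H2AC13 and H2AC14, both below 0, only 41.2% and 38.2% of windows were unique, so part of their RNA could not be counted. The testis genes H2AC1 and H2BC1 had no reads.

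H3 supplies the core histone whose tail carries many of the known chromatin marks. Of the 4 H3 genes with a mean of at least 10, the groups overlapped in 3, and in H3C1 both cadmium libraries were lower. H3C1 had 20, 10, 10 and 10 counts, so control 3 lay above cadmium only after scaling, at 10.6 against 9.95 and 9.87. H3C10 had normalized counts of 57.7 and 21.3 in control and 41.8 and 59.2 in cadmium. H3C3 had 45.4 and 29.8 against 36.8 and 20.7, and H3C2 had 17.0 and 27.6 against 21.9 and 27.6. The summed level of all H3 members was 1.91 to 2.78 CPM, whereas the replacement genes H3-3A and H3-3B together had 594 to 685 CPM in the same poly(A)-selected libraries.

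**Figure D3:**
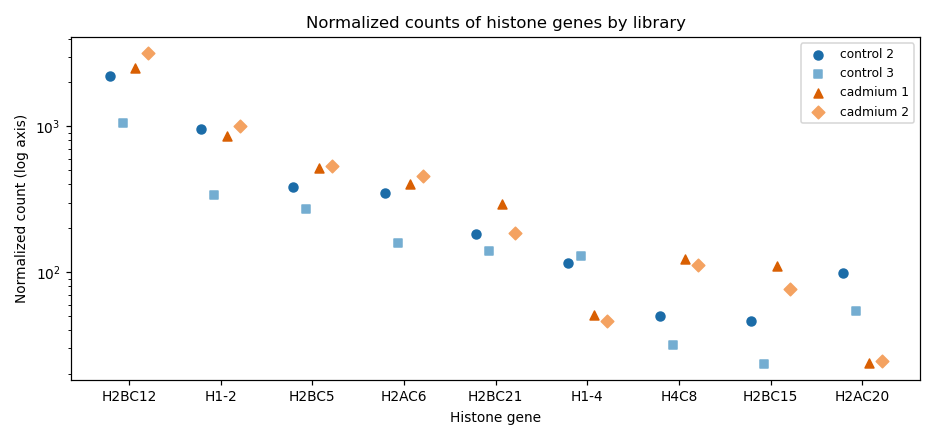
Normalized counts (vertical axis, logarithmic) of 9 histone genes (horizontal axis) in each of the 4 libraries, 1 symbol per library with no mean drawn. In H2BC12, H1-2, H2BC5 and H2AC6 control 3 is the lowest point, in H4C8 and H2BC15 both cadmium points lie above both controls, and in H1-4 and H2AC20 both lie below.

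Summed over all members, the histone level was 85.6 and 48.9 CPM in control and 100.2 and 112 CPM in cadmium. The log2 ratio of the means was 0.66, and both controls lay below both cadmium libraries, control 3 much farther than control 2. Against control 2 only the ratio was 0.31, and against control 3 only it was 1.12. The sum rested on few genes, since H2BC12, H1-2, H2BC5 and H2AC6 took 67.5% to 82.8% of the histone counts of a library. Without H2BC12 the log2 ratio was 0.49. By family, H2B had 52.8 and 30.9 against 68.2 and 77.4 CPM, H1 18.2 and 8.49 against 16.7 and 18.9, and H2A 10.2 and 6.07 against 9.77 and 10.7. H4 had 1.66 and 1.54 against 3.34 and 2.81 CPM. The H2B and H4 groups did not overlap, while in H1 and H2A control 3 alone stood below the other libraries. The H4 difference came largely from H4C8. It held 53 and 30 of 103 and 80 H4 counts in control, and 123 and 114 of 184 and 159 in cadmium.

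Gene models differ in whether they end at the stem-loop or run on, and some of these genes are known to give longer, polyadenylated messages as well. This split was made after the values were seen and is a description. In 15 genes the model ran more than 100 bases past the stem-loop, and 9 of these had a mean of at least 10. All 9 had a log2 fold change above 0, with a median of 0.66, and both cadmium libraries were above both controls in 7. Over all genes with such a mean, 47.0% were above 0 and 20.1% lay above both controls. On chromosome 6, where 7 of the 9 lie, these shares were 68.3% and 39.3%. The fold change of the 9 genes was above 0 in 7 without control 3, and in 8 with halved counts and without cadmium 1. Of the 9, 6 were among the 8 H2B genes described above, so this split and the H2B family are largely the same genes. Among models that end at the stem-loop, 7 of 14 were above 0, with a median of -0.09. Summed over all 53 genes, models that end at the stem-loop had 63.96 and 34.1 CPM in control and 69.1 and 82.4 CPM in cadmium, higher in both cadmium libraries like the models that run past it (21.7 and 14.7 against 31.1 and 29.8 CPM). Most of the former sum came from H2BC12 and H1-2, which do not run past the stem-loop. Without these, chosen after their values were seen, the remaining 51 summed to 9.61 and 8.95 CPM in control and 7.26 and 7.23 CPM in cadmium.

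The head-to-head pairs ranged from partners of like level per kb to partners far apart. Of the 12 pairs, 3 were at 0 in both genes, and their gaps each held 3 CCAAT and 1 octamer match. In 5 pairs both genes had a mean of at least 10, and the H2B partner had the higher fold change in 4. Over all 5 pairs the H2B log2 fold change minus that of H2A had a median of 0.56 and ran from -0.52 to 2.23. In the H2BC12-H2AC12 pair, whose gap is printed above, H2AC12 had 23, 18, 9 and 12 counts and H2BC12 had 2359, 987, 2541 and 3237. The level of H2BC12 per kb was 135 times that of H2AC12, and their log2 fold changes were 0.80 and -0.98. In the H2BC21-H2AC20 pair on chromosome 1, the controls were higher in H2AC20 and lower in H2BC21, with the values given above. The levels per kb were similar, with H2BC21 at 0.898 of H2AC20, as were those of H2BC11 at 1.13 times H2AC11. The H2B models are longer, at 2224 bases for H2BC21 against 494 for H2AC20, and 1046 for H2BC11 against 493 for H2AC11. Before division by length, mean normalized counts were 201 against 50.5 and 90.9 against 37.8. For H2BC21 and H2AC20 the log2 fold changes differed by 2.23, and for H2BC11 and H2AC11 by 0.44. H2AC6 and H2BC4 went the other way, at 0.75 and 0.23. H2AC6, H2BC4, H2BC11, H2BC15 and H2BC21 have models that run past the stem-loop, and the part of the gene model in these differences was not tested.

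**Figure D4:**
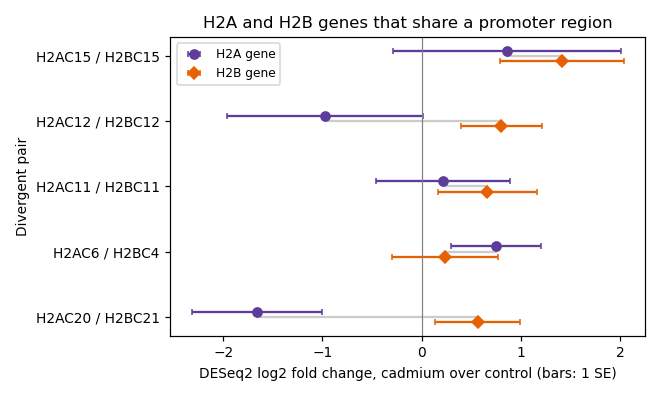
DESeq2 log2 fold changes, cadmium over control (horizontal axis), for the H2A (circles) and H2B (diamonds) genes of the 5 head-to-head pairs in which both genes averaged 10 or more normalized counts, with bars of 1 standard error from 2 libraries a group and grey lines joining partners. The H2B gene lies to the right in 4 of 5 pairs, with the widest gap at H2AC20 and H2BC21.

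The chromosome 6 and chromosome 1 clusters were then set against each other and against their surroundings. The median log2 fold change was 0.44 over the 20 chromosome 6 histone genes and 0.03 over the 3 of chromosome 1, a difference of 0.41. Both cadmium libraries lay above both controls in 9 of the 20 and below both in 4, beside 39.3% and 11.1% of all chromosome 6 genes. Chromosome 1 gave 1 above, 1 below and 1 overlapping, beside 18.4% above and 20.3% below. With 3 genes on chromosome 1 its median is that of H2BC18, which shares exon bases with FCGR1A. Leaving out H2BC18 put it at -0.55, and leaving out each library in turn put the difference between -0.07 and 0.83, the lowest being without cadmium 2.

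The surrounding genes differed in much the same way. Protein-coding genes that are no histone gene of these clusters, within the loci or 500 kb on either side, had a median of 0.36 on chromosome 6 (25 genes with a mean of at least 10) and -0.11 on chromosome 1 (26 genes), a difference of 0.47. Of the 25, 22 were above 0. All genes of chromosome 6 had a median of 0.19 and all of chromosome 1 had -0.06. One neighbour was called, the zinc finger gene ZNF165 (chr6:28080568-28089563), singled out after its values were seen because it was the only one. It had normalized counts of 71.9 and 72.3 in control and 338 and 251 in cadmium, a log2 difference of 2.03 ± 0.40 (SE), and its DESeq2 adjusted p was 0.000215.

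Single libraries separated the histone genes from their neighbours. From control 2 to control 3 the chromosome 6 histone genes were lower by a median of 0.56 on the log2 scale, whereas their neighbours were higher by 0.26. Against control 2 the histone genes were higher by 0.19 in cadmium 1 and 0.32 in cadmium 2, and the neighbours by 0.52 and 0.57. Against control 3 the histone genes were higher by 0.72 and 0.82, and the neighbours by 0.29 and 0.31. The difference between the cadmium libraries was 0.13 for histone genes and 0.00 for neighbours. For the histone genes, the gap between the controls was thus larger than the gap between either cadmium library and control 2.

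**Figure D5:**
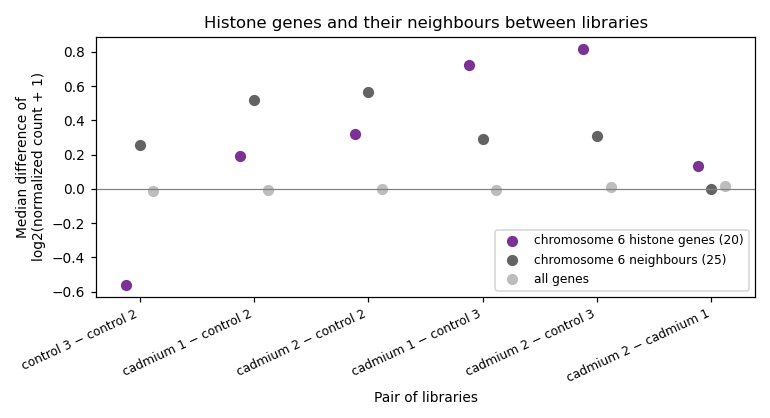
Median difference of log2(normalized count + 1) (vertical axis) between each pair of libraries (horizontal axis), for the 20 chromosome 6 histone genes, 25 protein-coding neighbours and all 18871 genes with a mean of at least 10. Histone genes and neighbours lie on opposite sides of 0 between the controls, at -0.56 and 0.26, and both lie above 0 in every comparison of cadmium with control.

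Genes that make, process and carry histone RNA and protein gave no called gene in any of the following lists. Of 12 histone mRNA processing and expression factors, 5 were above 0 and 7 below, with a median of -0.03 and none at an unadjusted p below 0.05 by DESeq2 or edgeR. SLBP, which binds the stem-loop, had normalized counts of 6980 and 7779 in control and 6246 and 6109 in cadmium, a log2 fold change of -0.26. NPAT, the activator of histone transcription, had 2724 and 3283 against 3159 and 3369. The groups overlapped in NPAT and not in SLBP. CSTF2, a cleavage factor subunit, had a log2 fold change of 0.54 and CPSF3, the endonuclease that cuts the histone RNA, had -0.48.

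Of 11 replacement histones, 4 were above 0 and 7 below, with a median of -0.05. CENPA, the centromeric H3, was the only one at an unadjusted p below 0.05, which held in both tools. It had 2647 and 1481 against 1100 and 1206, and its log2 fold change was -0.84 ± 0.36 (SE), at an adjusted p of 0.493 (DESeq2). The log2 fold change of H2AJ, an H2A variant, was 0.36, and the groups overlapped.

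Of 12 histone chaperones and import factors, 3 were above 0 and 9 below, with a median of -0.18 and none at an unadjusted p below 0.05 by DESeq2 or edgeR. The log2 fold changes were -0.43 for HAT1, which acetylates new H4, 0.36 for ASF1A and -0.29 for its paralog ASF1B, both H3-H4 chaperones.

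Of 20 S phase genes, which mark the phase in which these histone RNAs are made, 15 were below 0 and 5 above, where 47.0% of all genes were above. Their median was -0.22, and 2 had an unadjusted p below 0.05 in each tool. Both cadmium libraries lay below both controls in 10 and above both in 4, beside 20.4% and 20.1% of all genes. RRM2, a ribonucleotide reductase subunit, had 20032 and 11062 in control and 7796 and 9684 in cadmium, and its log2 fold change was -0.83, at an adjusted p of 0.513 (DESeq2). E2F1, a transcription factor of S phase entry, had 10455 and 8043 against 5767 and 6141, and its log2 fold change was -0.64, at an adjusted p of 0.491 (DESeq2). CCNE1, a cyclin of the same step, had -0.52. In RRM2, CENPA and CCNE1 control 3 was nearer to cadmium than control 2 was, the reverse of H2BC12 and H1-2. Whether cell cycle phase has a part in the histone values was not tested.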

How the data were processed

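RNA-seq libraries of MDA-MB-231 cells (2 control, 2 cadmium-resistant) were analysed from the read counts per gene that the authors deposited. Per the labels and methods, reads were aligned to hg38 with HISAT2 and assigned with featureCounts 2.0.1 to an Ensembl annotation. The header command left strand unused, dropped reads with several places or genes, and counted each mate. Counts on antisense or overlapping genes can thus mix. Symbols matched 61369 of 61541 genes. Control columns carry the numbers 2 and 3, the labels 1 and 2.

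All genes were fitted in R 4.3.3 with DESeq2 1.42.0 (group as the only term, two-sided Wald test, Benjamini-Hochberg adjustment over all genes, threshold 0.1). Alternatives were edgeR 4.0.16, other scaling factors, filters and thresholds, and leaving out each library. Scripts were tested on simulated data for 33455 genes. Members and gene lists were chosen with earlier results of these data known. Named were members at an unadjusted p below 0.05, the 3 highest per family, the highest per family on chromosome 1, testis-enriched members, and from each list SLBP, NPAT and the 3 lowest p, 1 of which is not reported here. Neighbours lay within 500 kb of a locus. Sequences came from hg38, GENCODE gene models and RefSeq promoters.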

Additional observations from a re-analysis of the deposited data

How the results depend on the processing

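No paired analysis was possible because no number ties a control to a cadmium library: the controls are 2 and 3 in the table but 1 and 2 in the labels. The count of called genes was 225, 0 with edgeR and 0 with edgeR without its filter on low counts (1422 and 1803 at an unadjusted p below 0.05), and 14 to 6189 when 1 library was left out. Those last fits assume that the lone library of a group varies like the others. The count of called histone genes was 0 under the other settings and 0 to 6 when 1 library was left out. Without control 2 the 6 called, of 16 histone genes with an adjusted p (14.8% of all genes were called), were H1-2, H2AC6, H2BC5, H4C8, H2BC12 and H2BC15, all higher in cadmium, and without control 3 the 1 called, of 28 (31.2% of all genes), was H2AC20, lower. The chromosome 6 median (0.44) was 0.081 with genes of a mean of at least 1, and 0.23 to 0.84 when 1 library was left out (0.84 without control 2). The chromosome 1 median (0.03) was -0.55 both with a mean of at least 50 and without members overlapping another gene, which leaves H2BC21 and H2AC20, and -0.35 to 0.33 when 1 library was left out. The difference (0.41) was 1.26 with a mean of at least 50, 0.11 with a mean of at least 1 and -0.068 to 0.83 when 1 library was left out. The log2 ratio of summed CPM (0.66) was 0.31 to 1.12 when 1 library was left out. Of 14 named genes, 4 changed sign when 1 library was left out: H1-2 ranged from -0.040 to 1.45, H2AC11 from -0.032 to 0.51, H3C10 from -0.20 to 1.25 and H3C2 from -0.16 to 0.53. All 98 values of the 14 genes under the other alternatives kept their direction and side of the threshold, halved counts included, an alternative chosen after seeing the data. The cause of these shifts was not tested. Depth limits 21 genes with a mean below 10, whose fold changes are not given.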
